A study of Homo sapiens with 6 samples.

Results

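Tumour cells carry surface proteins that bind receptors on T cells, natural killer (NK) cells and macrophages and either restrain or stimulate them. The 9 genes described here encode such ligands: PD-L1 (CD274), PD-L2 (PDCD1LG2), B7-H3 (CD276), B7-H4 (VTCN1), CD80 and CD86 of the B7 family, the macrophage signal CD47, and the poliovirus receptor PVR with its relative nectin-2 (NECTIN2). They were listed by name with earlier results of these data known, so their differences are given as description and are no independent support. The probe of each was chosen by its mean level over all 6 arrays, the highest among those that carry exactly 1 gene symbol. All 9 of 9 were found, each with 1 probe, out of 18417 genes tested.

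H441 is a long-established cell line from a human lung adenocarcinoma. The knockdown cells received a pool of siRNA against the transcription factor ETS2 by lipid transfection, and the control cells a scrambled siRNA pool delivered in the same way, with total RNA isolated 48 h later. Each group held 3 arrays, and the design text describes every transfection as a biological replicate of its own. Both groups are cultures of 1 cell line without immune cells added, which limits them as a model of tumour immunity. The ligands were thus measured as RNA in the cells that would present them, not as protein at the surface.

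PD-L1 and PD-L2 bind PD-1 on activated T cells and dampen their response. Interferon gamma from T cells, acting through JAK kinases and IRF1, is the best known inducer of CD274, and lung adenocarcinomas can also express it through oncogenic signalling. CD80 and CD86 are normally carried by professional antigen-presenting cells and bind CD28, which stimulates T cells, or CTLA4, which restrains them. PVR and nectin-2 engage TIGIT, an inhibitory receptor, and CD226, an activating one, and CD47 binds SIRPA on macrophages and inhibits engulfment.

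The targeted gene was lowered in every transfection. ETS2 read 8.87, 8.70 and 8.78 on the log2 scale in ETS2 siRNA arrays, against 9.79, 9.91 and 9.79 in control arrays, which left 48.4% of the control level (log2 difference -1.05, limma adjusted p = 0.000254). Levels are RMA values on the log2 scale and differences are ETS2 siRNA minus control siRNA. A gene is called changed at a limma adjusted p under 0.05, adjusted over all 18417 genes. A background floor of 6.67 was set at the 95th percentile of 341 olfactory receptor genes. By their mean over the 6 arrays, 70.3% of all genes lay above it. The arrays had near-equal medians over genes, between 8.07 and 8.10. All 15 lung adenocarcinoma epithelium markers, among them EPCAM, KRT7, NKX2-1 and NAPSA, lay above the floor, as the label of the line implies.

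Of the 9 ligand genes, 3 rose after ETS2 siRNA and 0 fell, and 6 did not pass the test. Over all genes, 2.28% rose and 2.63% fell, together 4.91%. CD274 rose by 1.40-fold, PDCD1LG2 by 1.23-fold and CD276 by 1.15-fold. The 3 that rose are members of the B7 family, and so are VTCN1, CD80 and CD86, which did not pass the test. VTCN1, CD80 and CD86 lay below the floor in both groups, so their readings are not above background, and the other 6 lay above it. Among genes with a group mean above the floor, 6.79% changed and 3.17% rose. The median difference of the 9 genes was 0.0067 on the log2 scale, beside a median of 0.0033 over all genes, and the median size of the difference was 0.11, beside 0.05 over all genes.

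CD274, which encodes PD-L1, had the largest difference of the 9. Its log2 level was 11.56, 11.58 and 11.67 in ETS2 siRNA arrays, against 11.09, 11.10 and 11.16 in control arrays. All ETS2 siRNA arrays lay above all control arrays, by a gap several times the spread within either group. The means were 11.60 ± 0.06 in ETS2 siRNA cells and 11.12 ± 0.04 in control cells (SD, n = 3 each). The log2 difference was 0.49 (SE 0.0449, 95% interval 0.38 to 0.59), with an adjusted p of 0.00169 by limma. Among the 420 genes that rose, 29 rose by more. In cultures of this kind, a higher level in each cell and a larger share of cells with the transcript cannot be told apart.

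**Figure D1:**
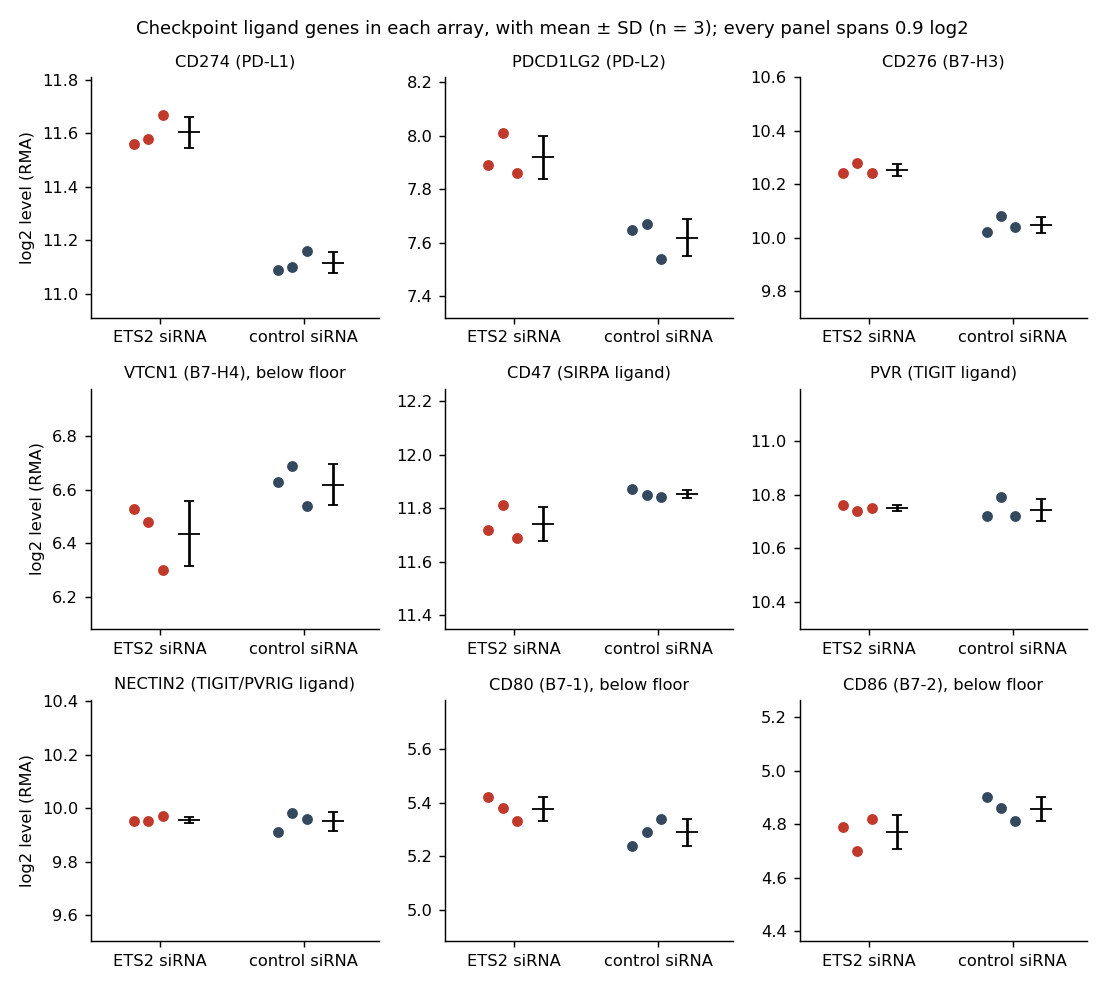
Log2 levels of the 9 checkpoint ligand genes in each array (points), with ETS2 siRNA on the left and control siRNA on the right of each panel and the mean ± SD beside the points (n = 3). CD274, PDCD1LG2 and CD276 lie higher in every ETS2 siRNA array than in any control array, and CD47 and VTCN1 lower.

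PDCD1LG2, which encodes PD-L2, the second ligand of PD-1, read 7.89, 8.01 and 7.86 in ETS2 siRNA arrays, against 7.65, 7.67 and 7.54 in control arrays. The lowest ETS2 siRNA array stood above the highest control array. The means were 7.92 ± 0.08 in ETS2 siRNA cells and 7.62 ± 0.07 in control cells (SD, n = 3 each). Its log2 difference was 0.30 (SE 0.0553, 95% interval 0.17 to 0.43, limma adjusted p = 0.0219). CD274 and PDCD1LG2 were thus both higher, and their intervals overlap.

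CD276 encodes B7-H3, a B7 protein found on many epithelial tumours whose receptor on T cells is not settled. It read 10.24, 10.28 and 10.24 in ETS2 siRNA arrays, against 10.02, 10.08 and 10.04 in control arrays. The groups did not overlap. The means were 10.25 ± 0.02 in ETS2 siRNA cells and 10.05 ± 0.03 in control cells (SD, n = 3 each), a log2 difference of 0.21 (SE 0.0382, 95% interval 0.12 to 0.29, limma adjusted p = 0.0220). The interval of CD276 lay wholly below that of CD274, although the difference between the genes was not tested. The call of CD274 held with any 1 array left out (adjusted p up to 0.0126). Those of PDCD1LG2 and CD276 ended without any 1 of ETS2 siRNA replicates 1, 2 and 3 and control replicates 1 and 3, with adjusted p up to 0.0803 for PDCD1LG2 and 0.103 for CD276, while both differences kept their sign and stayed between 0.26 and 0.33 for PDCD1LG2 and between 0.19 and 0.22 for CD276.

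**Figure D2:**
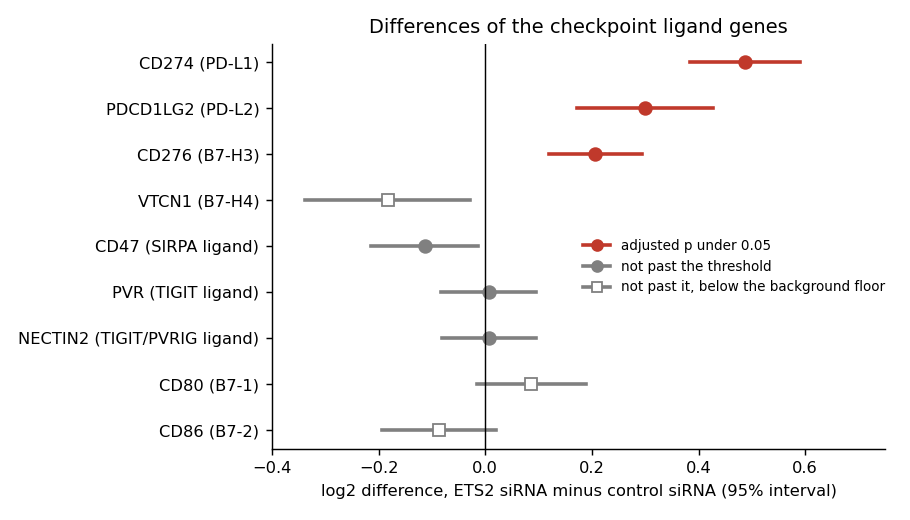
Log2 differences (ETS2 siRNA minus control siRNA) of the 9 genes with their 95% intervals. Red marks the 3 genes past the threshold, at 0.49, 0.30 and 0.21, and open squares the 3 genes below the background floor.

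VTCN1 encodes B7-H4, an inhibitory B7 protein of epithelial tumours. It read 6.53, 6.48 and 6.30 in ETS2 siRNA arrays, against 6.63, 6.69 and 6.54 in control arrays. The groups did not overlap, but by 0.01 alone, and all 6 values are close to or below the floor. The log2 difference was -0.18 (95% interval -0.34 to -0.03) and did not pass the test (adjusted p = 0.187).

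CD47 read 11.72, 11.81 and 11.69 in ETS2 siRNA arrays, against 11.87, 11.85 and 11.84 in control arrays. All ETS2 siRNA arrays were lower, with a difference of -0.11 on the log2 scale (95% interval -0.21 to -0.01), and the adjusted p of 0.206 did not pass. With an intensity trend in the variance model, CD47 passed (adjusted p = 0.0281), the 1 alternative of 17 in which it did, and the others ran up to 0.473. In all, the arrays of the groups did not overlap for 5 of the 9 genes, 3 higher and 2 lower, beside 23.1% of all genes.

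PVR, the ligand of TIGIT, CD226 and CD96, read 10.76, 10.74 and 10.75 in ETS2 siRNA arrays, against 10.72, 10.79 and 10.72 in control arrays. NECTIN2, which also binds the inhibitory receptor PVRIG, read 9.95, 9.95 and 9.97 in ETS2 siRNA arrays, against 9.91, 9.98 and 9.96 in control arrays. The groups overlapped for both genes. Each had a difference of 0.01, with a 95% interval from -0.08 to 0.10 for PVR and from -0.08 to 0.09 for NECTIN2 (adjusted p = 0.962 for each). Changes of the size seen for CD274, PDCD1LG2 or CD276 lie outside these intervals.

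CD80 and CD86, the ligands of CD28 and CTLA4, were at background. CD80 read 5.42, 5.38 and 5.33 in ETS2 siRNA arrays, against 5.24, 5.29 and 5.34 in control arrays, a difference of 0.09 (adjusted p = 0.361). CD86 read 4.79, 4.70 and 4.82 in ETS2 siRNA arrays, against 4.90, 4.86 and 4.81 in control arrays, a difference of -0.09 (adjusted p = 0.392). The groups overlapped for both.

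**Figure D3:**
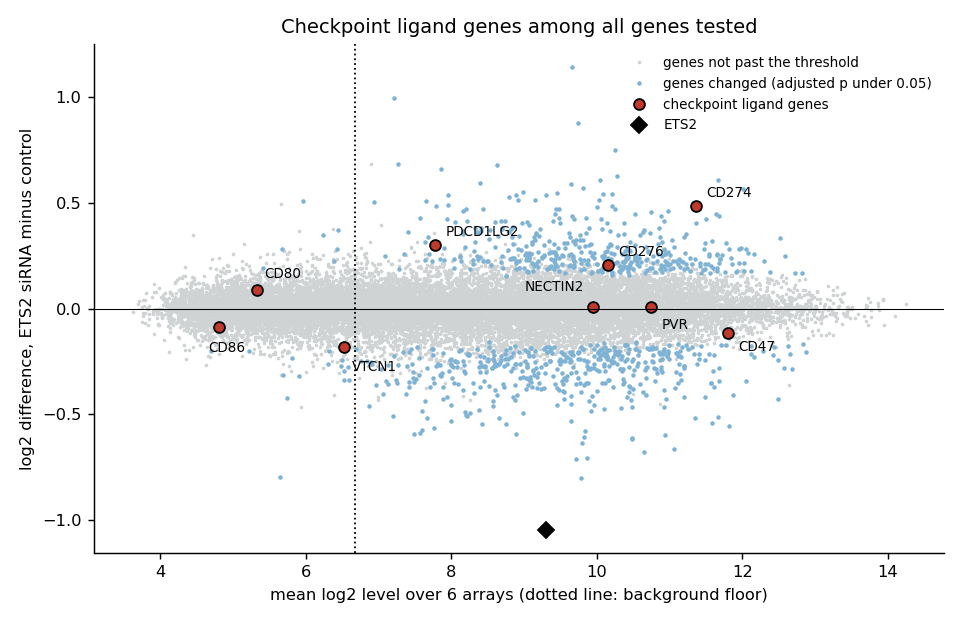
Log2 difference (ETS2 siRNA minus control) of every gene tested against its mean log2 level over the 6 arrays, with the 9 ligand genes in red and the background floor of 6.67 as a dotted line. CD274 stands at 0.49, above most changed genes of its level, while PVR and NECTIN2 lie at 0.01, among genes not past the threshold.

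The promoters of the ligand genes were searched for the letters that ETS factors and other regulators bind. RefSeq windows of 300 bases, 250 before and 50 after each annotated start (GRCh38.p14), were found for 8 of the 9 genes, 10 windows in all. PDCD1LG2 had no entry. The windows are shown for CD274 (chr9:5450292-5450591, plus strand) and the 2 starts of CD276 (chr15:73684133-73684432 and chr15:73684520-73684819, plus strand), since these genes rose. That of PVR (chr19:44643660-44643959, plus strand), which did not pass the test, is set beside them. Capitals mark the core that ETS factors bind, GGAA, or TTCC where it lies on the other strand.
CD274: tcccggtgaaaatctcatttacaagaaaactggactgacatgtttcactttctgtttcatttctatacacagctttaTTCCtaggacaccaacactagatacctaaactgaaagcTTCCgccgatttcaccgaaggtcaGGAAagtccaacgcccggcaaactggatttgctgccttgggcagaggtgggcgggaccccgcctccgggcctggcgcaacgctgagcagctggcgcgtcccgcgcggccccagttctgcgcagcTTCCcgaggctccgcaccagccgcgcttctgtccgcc
CD276, upstream start: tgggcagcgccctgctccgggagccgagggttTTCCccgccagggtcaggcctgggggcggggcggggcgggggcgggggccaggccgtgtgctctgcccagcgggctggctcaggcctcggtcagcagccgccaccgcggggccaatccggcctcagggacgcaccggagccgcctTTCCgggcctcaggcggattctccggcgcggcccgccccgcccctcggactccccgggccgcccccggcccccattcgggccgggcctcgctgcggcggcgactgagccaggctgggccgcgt
CD276, downstream start: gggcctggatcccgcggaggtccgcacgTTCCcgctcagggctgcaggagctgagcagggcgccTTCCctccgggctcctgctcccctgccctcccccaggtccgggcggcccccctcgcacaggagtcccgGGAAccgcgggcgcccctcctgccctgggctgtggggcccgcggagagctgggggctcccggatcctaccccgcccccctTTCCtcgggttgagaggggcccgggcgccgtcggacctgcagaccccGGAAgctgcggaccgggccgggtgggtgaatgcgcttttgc
PVR: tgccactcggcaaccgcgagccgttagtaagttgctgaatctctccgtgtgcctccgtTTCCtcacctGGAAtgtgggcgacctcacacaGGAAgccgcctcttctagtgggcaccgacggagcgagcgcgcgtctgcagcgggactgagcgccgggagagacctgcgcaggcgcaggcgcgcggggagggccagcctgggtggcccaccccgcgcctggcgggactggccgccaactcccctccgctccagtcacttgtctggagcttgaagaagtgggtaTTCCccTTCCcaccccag
The core GGAA occurred 4 times in the CD274 window, 2 and 5 times in the CD276 windows and 5 times in that of PVR. Its letters are short, and 95.5% of all 35116 windows held at least 1 match, with a median of 3. The longer CCGGAA, which contains the core, had 1 match in each CD276 window and 0 in the other 8 windows of the 9 genes, beside 17.2% of all windows. The CD274 window held 2 matches to GAAANNGAAA, the core of the element bound by interferon regulatory factors, which 3.57% of all windows held, and 1 to TTCNNNGAA, the STAT element, which 7.66% held. The 2 matches to GAAANNGAAA overlap each other, as they share the letters TTTC in the middle of tttcactttctgtttc. No match to either element overlapped a GGAA core. The AP-1 element TGANTCA had 1 match among the 10 windows, in VTCN1, beside 7.71% of all windows. Both strands were searched, and a match is a stretch of letters, not a site shown to be bound.

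CD274 and PDCD1LG2 are direct neighbours on chromosome 9, with 0 protein-coding genes between them in the RefSeq order. The 5 measured protein-coding genes on either side were examined, a comparison added after the values of the members had been seen. PLGRKT, which encodes a plasminogen receptor and lies next to CD274 on the other side, rose by 0.46 (SE 0.0494, limma adjusted p = 0.00266), with a mean of 8.40 in ETS2 siRNA cells and 7.93 in control cells. It was the 1 gene of these 10 that changed, beside 4.91% of all genes, and 5 of the 10 lay below the floor. With CD274 and PDCD1LG2, which were listed with earlier results known, PLGRKT forms a run of 3 changed genes. Its call held with any 1 array left out (adjusted p up to 0.0222). The next gene beyond PDCD1LG2, RIC1, stood at -0.09 (adjusted p = 0.411), ERMP1 at 0.02 and RANBP6 at 0.17 (adjusted p = 0.117). The relaxin family genes RLN1, RLN2, INSL4 and INSL6 and the melanocyte gene MLANA lay below the floor.

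**Figure D4:**
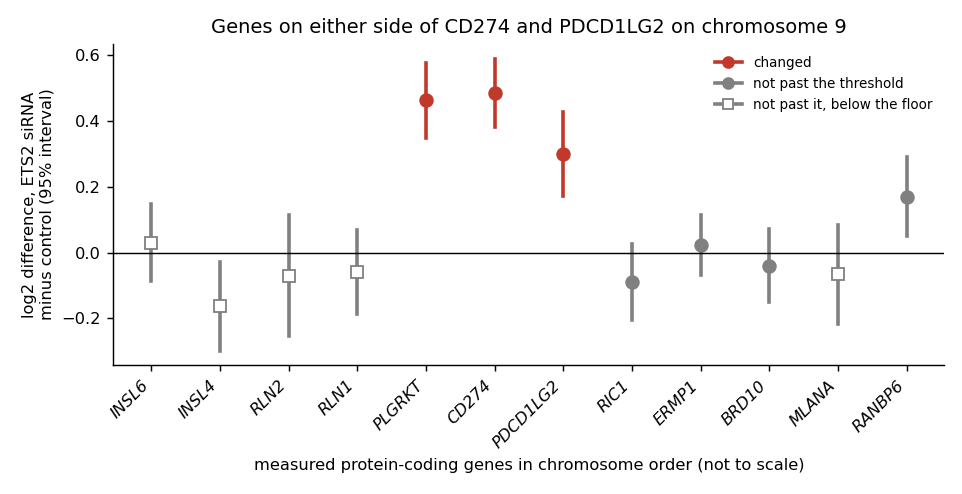
Log2 differences (ETS2 siRNA minus control siRNA) with 95% intervals of the measured protein-coding genes around CD274, in chromosome order and not to scale. PLGRKT, CD274 and PDCD1LG2, in red, rose by 0.46, 0.49 and 0.30, and the genes on either side did not pass the test.

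The receptors that read these ligands belong to lymphocytes and macrophages. Of 13 listed, 12 were measured, 4 of them above the floor, and 0 changed by limma, with 0 at an unadjusted p under 0.05, beside 18.5% of all genes at that p. CD96 had a difference of -0.07 (adjusted p = 0.474) and ICOS one of 0.06 (adjusted p = 0.618). Of the leukocyte markers, 0 of 21 changed, with 8 above the floor. Over all genes, 4.91% changed. The count of changed leukocyte markers was 1 with an intensity trend and 1 with array weights. PTPRC, the pan-leukocyte phosphatase, averaged 4.72 in ETS2 siRNA cells and 4.74 in control cells, below the floor. The T cell chain CD3E averaged 5.77 in ETS2 siRNA cells and 5.72 in control cells, also below it. The 8 markers above it were CD79A, CD14, CSF1R, ITGAM, CD68, NKG7, LAMP3 and CCR7. CD68 came closest to the threshold (0.17, adjusted p = 0.107), followed by ITGAM (-0.16, adjusted p = 0.122) and NKG7 (0.13, adjusted p = 0.153). Each of these had an unadjusted limma p under 0.05. The summed linear level of the 21 markers ran from 4238 to 4496 in ETS2 siRNA arrays and from 4000 to 4197 in control arrays. Without CD68, a lysosomal protein that many tumour lines express, it ran from 1555 to 1621 in ETS2 siRNA arrays and from 1586 to 1598 in control arrays.

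Other co-signalling and checkpoint ligands moved in both directions, 2 higher and 2 lower of 26 measured and 29 listed, beside 2.28% higher and 2.63% lower over all genes, with a median difference of 0.01. NECTIN4, a nectin that is also a target of antibody-drug therapy, fell by 0.33 (SE 0.0399, limma adjusted p = 0.00514) and kept its call with any 1 array left out. NT5E, which encodes the adenosine-producing ectoenzyme CD73, rose by 0.29 (adjusted p = 0.0116), a call lost without ETS2 siRNA replicate 3 (adjusted p = 0.0622). NECTIN1 rose by 0.24 (adjusted p = 0.0194). IDO1, the tryptophan-degrading enzyme that restrains T cells, fell by 0.32 (adjusted p = 0.0159) with both group means below the floor. The call of NECTIN1 ended without any 1 of ETS2 siRNA replicates 1, 2 and 3 and control replicates 1 and 3 (up to 0.0899), and that of IDO1 without ETS2 siRNA replicates 2 or 3 or control replicate 1 (up to 0.0811). Among the 11 stress-induced or other NK cell activating ligands, 0 changed by limma and 1 had an unadjusted p under 0.05, beside 18.5% of all genes. The count of changed NK ligands was 1 with either filter on dim genes and with an intensity trend. MICB, a ligand of the receptor NKG2D, came closest with 0.14 (adjusted p = 0.0966), and RAET1L read 0.17 (adjusted p = 0.403).

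**Figure D5:**
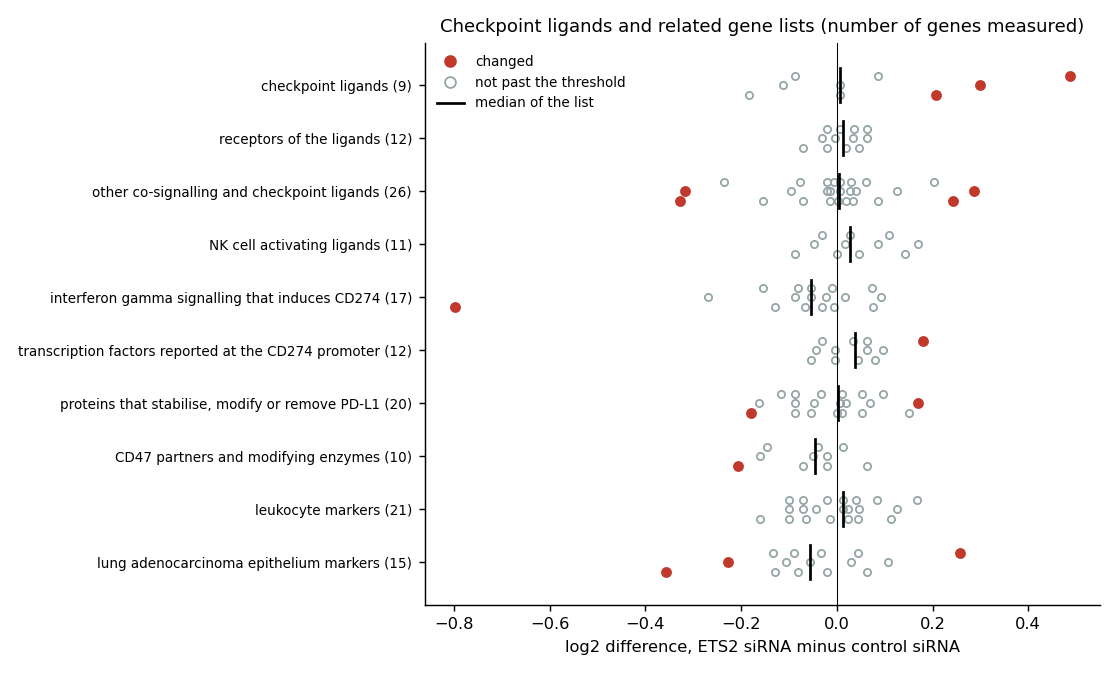
Log2 differences (ETS2 siRNA minus control siRNA) of the 9 ligand genes and of 9 related gene lists, 1 point per gene measured, red where changed, with the median of each list as a black bar. The ligand list has 3 red points above 0 and none below, while the receptor, NK ligand and leukocyte lists have none.

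Interferon gamma signalling is the classical inducer of CD274. Of its 17 genes measured, 0 rose and 1 fell, beside 2.28% and 2.63% over all genes, with a median difference of -0.05. The one that fell was the chemokine gene CXCL10, at -0.80 (SE 0.139, limma adjusted p = 0.0180), with means of 5.25 in ETS2 siRNA cells and 6.04 in control cells, both below the floor. Its call ended without any 1 of the 3 ETS2 siRNA replicates or control replicate 3 (adjusted p up to 0.0811). The count changed in this list was 0 with either filter on dim genes, which leaves CXCL10 out, and 2 with an intensity trend. IRF1, the factor that carries the interferon signal to the CD274 promoter, stood at -0.05 (95% interval -0.15 to 0.04, adjusted p = 0.582), and JAK2 at -0.02 (95% interval -0.14 to 0.09, adjusted p = 0.877). A probe that carries several symbols, 1 of them in this list, is outside these counts and rose by 0.41.

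Of 12 measured transcription factors with reported roles at the CD274 promoter, FOSL1, an AP-1 subunit, rose by 0.18 (SE 0.0367, limma adjusted p = 0.0318) and 0 fell. MYC and HIF1A each had a difference of -0.0033 and STAT3 one of -0.03, and none of these passed. Of 20 genes for proteins that stabilise, modify or remove PD-L1, 1 rose and 1 fell, beside 4.91% of all genes changed. CMTM4, a tetraspan protein that protects PD-L1 from degradation, rose by 0.17 (SE 0.0374, adjusted p = 0.0419). GSK3B, a kinase whose phosphorylation of PD-L1 leads to its degradation, fell by 0.18 (SE 0.0397, adjusted p = 0.0425). The related protector CMTM6 read 0.10 (adjusted p = 0.350). The calls of FOSL1, CMTM4 and GSK3B each ended with any 1 of the 6 arrays left out, with adjusted p up to 0.130, 0.160 and 0.161. All 3 calls also ended with the replicate block, those of CMTM4 and GSK3B with arrays centred on a common median, and that of CMTM4 with arrays scaled on ribosomal protein genes (adjusted p up to 0.0720, 0.0872 and 0.0853 for FOSL1, CMTM4 and GSK3B over these). The count of 2 changed in the list was thus 0 with the block or centring and 1 with ribosomal scaling, and it was 4 with an intensity trend.

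Among 10 partners and modifying enzymes of CD47, 1 fell and 0 rose, beside 2.63% lower and 2.28% higher over all genes. The count changed in this list was 0 with the replicate block. It was 2 with either filter on dim genes, an intensity trend or array weights. THBS1, which encodes the secreted CD47 ligand thrombospondin 1, fell by 0.21 (SE 0.0366, limma adjusted p = 0.0191), with means of 12.77 in ETS2 siRNA cells and 12.98 in control cells. Its call ended without any 1 of ETS2 siRNA replicates 1, 2 and 3 and control replicates 1 and 3 (adjusted p up to 0.0864). QPCTL, the enzyme that modifies CD47 so that SIRPA binds it, read -0.04 (adjusted p = 0.675). Of the 15 epithelium markers, 3 changed, beside 4.91% of all genes and 6.79% of those with a group mean above the floor. SFTPB fell by 0.36 and ELF3 by 0.23, and FOXA2 rose by 0.26. The part of these markers in the ligand results was not tested. The call of SFTPB held with any 1 array left out, that of ELF3 ended without ETS2 siRNA replicates 2 or 3 or control replicate 3 (adjusted p up to 0.0724), and that of FOXA2 ended without ETS2 siRNA replicates 1 or 3 or any 1 control replicate (up to 0.170). The call of FOXA2 also ended with ribosomal scaling and with array weights (up to 0.0723), and 8 epithelium markers changed with an intensity trend.

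Over the 6 arrays, the genes whose levels ran most like CD274, of 12937 others with a mean above the floor, were RAB3B (Pearson r = 0.9999), RABGEF1 (r = 0.9995) and FGFBP1 (r = 0.99935). The most opposite were SSBP2 (r = -0.998), CDK19 (r = -0.997) and LAMP2 (r = -0.997). All 6 of these changed between the groups by limma, and the r mostly reads the step between 3 ETS2 siRNA and 3 control arrays that they share. The call of LAMP2 ended with any 1 array left out (adjusted p up to 0.148) and with the replicate block, centring or ribosomal scaling (up to 0.0769), and that of RABGEF1 without ETS2 siRNA replicate 3 (0.0563). FGFBP1, a carrier of fibroblast growth factors, rose by 0.48, close to the 0.49 of CD274, and RAB3B, a secretory GTPase, by 1.14. Among the ligand genes, r with CD274 was 0.958 for CD276, 0.872 for PDCD1LG2, -0.876 for CD47 and 0.0975 for PVR.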

How the data were processed

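The deposited values are log2 expression levels of 33297 probe sets on an Affymetrix human gene array, rounded to 2 decimals, made by the authors with RMA per the submitters' processing notes. RMA corrects background, normalises between arrays and summarises probes, so a shift shared by all genes is removed and folds of dim genes are compressed. Version, settings and build: not given in the sources used here. The platform annotation gave 19460 probes with 1 symbol, 1754 with several and 12083 unnamed here. Of the first, 19429 matched a current RefSeq gene record. The brightest probe per gene left 18417 genes.

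Groups were compared with limma 3.58.1 in R 4.3.3 (lmFit, eBayes, no trend, two-sided, Benjamini-Hochberg over all genes). An exact permutation of 3 against 3 arrays cannot go below p = 0.1. Precision is limited by the number of arrays. The p-values measure the spread between transfections of 1 line. Genes named are ETS2, the 9 ligands and the 3 genes most and least like CD274. Each list adds up to 4 changed members, or the 2 with the smallest p. Others were chosen after their values were seen or for their role. They are PLGRKT and its neighbours, PTPRC, CD3E, EPCAM, KRT7, NKX2-1, NAPSA, IRF1, JAK2, MYC, HIF1A, STAT3, CMTM6 and QPCTL. The leukocyte markers above the floor, apart from CD68 and ITGAM, were named after their values were seen. The members and lists were chosen with earlier results of these data known. Each result was recomputed with a replicate block, 3 array scalings, 2 floors for dim genes, 2 probe rules, 2 variance models, array weights and each array left out. The fit was tested on simulated data.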

Additional observations from a re-analysis of the deposited data

Results flagged for a closer look

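Of 8 probes that carry several gene symbols and list a gene of the related lists, 1 changed when all probes were tested, and these probes are outside the gene-level comparison. Probe 7917516 read 8.46, 8.45 and 8.40 in ETS2 siRNA arrays, against 8.06, 8.00 and 8.03 in control arrays, a log2 difference of 0.41 (SE 0.0394, limma adjusted p = 0.0121 over all 33297 probes). Of the 8, 0 listed a checkpoint ligand gene, and this probe lists 1 of the interferon gamma signalling list. It carries the symbols of several genes, so its rise was assigned to none of them and does not enter that list's count of 0 higher.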

How the results depend on the processing

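The count of 3 changed ligand genes was the same under the replicate block, 3 array scalings, 2 floors for dim genes, 2 probe rules, robust variances and array weights, and 4 with an intensity trend, which added CD47. With 1 array left out it lay between 1 and 3. The count over all genes, 904, was 1408 with genes whose mean lay above the floor and 1397 with genes having a group mean above it, where fewer genes were tested. It was 1963 with an intensity trend and 1480 with array weights; the cause was not tested. With 1 array left out it lay between 213 and 735, where fewer arrays were tested. PVR changed sign to -0.005 without control replicate 1 and also -0.005 without control replicate 3, and NECTIN2 to -0.0133 without control replicate 1; with 1 array left out PVR ran from -0.005 to 0.03 and NECTIN2 from -0.0133 to 0.0217, and neither passed the test in any alternative. VTCN1, CD80 and CD86 have no value under the 2 filters. The labels give no pairing for the replicate numbers, and the check did not establish one: deviations from the group means of same-numbered arrays correlated at 0.177, 0.181 and 0.0353, and not every array correlated best with its own number. With the replicate block 604 genes changed, the 3 ligand calls held, and the calls of FOSL1, CMTM4, GSK3B, THBS1 and LAMP2 did not pass. Dim genes are limited by signal over background, CD80, CD86 and VTCN1 among them.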
